A study of Mus musculus with 240 samples.

Results

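The comparison described here set gene expression in the central amygdala (CeA) against that in the nucleus accumbens (NAcc) of the same mice. All libraries of both regions with deposited log2 values were used, which gave 48 CeA and 47 NAcc libraries (95 in all). The rest of the series with such values was 48 libraries of the prelimbic cortex (PrL). The mice were naïve animals of 8 inbred strains, with 3 females and 3 males of each: B6 (C57BL/6J), AJ (A/J), S129 (129S1/SvImJ), NOD (NOD/LtJ), NZO (NZO/HILtJ), WSB (WSB/EiJ), PWK (PWK/PhJ) and CAST (CAST/EiJ). No mouse carried an engineered allele or received an agent, and the series record gives their age as 8 weeks, whereas the study's methods give an older adult age. Each sample was a needle punch from a frozen coronal slice, taken around the anterior commissure for the NAcc and from a slice further back for the CeA. The NAcc library of B6 mouse 1 was left out by the authors, so that 47 mice had both regions. Values are log2 CPM (counts of a gene scaled to the total of its library) unless a sentence says otherwise, and differences are CeA minus NAcc on that log2 scale.

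The NAcc is the ventral part of the striatum, a nucleus made mostly of GABAergic projection neurons that carry dopamine D1 or D2 receptors, with a small number of cholinergic interneurons. The CeA is the output nucleus of the amygdala. It is also made mostly of GABAergic neurons, of which well-known classes carry protein kinase C delta, somatostatin or corticotropin-releasing hormone, and it lies beside the basolateral amygdala, whose principal neurons are glutamatergic and of pallial origin. Both nuclei are studied for their part in motivation, fear and the intake of drugs and alcohol.

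Total counts over all genes ran from 18240695 to 33951616 per library, with a median of 24855569 in the CeA and 24818199 in the NAcc. The 3 trays in which libraries were sequenced each held 15 or 16 libraries of either region. The CeA and NAcc libraries of a mouse were always in different trays. Counts of mice given below compare values that were not adjusted for tray. A few libraries went against what their region label would lead one to look for, and they are given before the results. Lists of marker genes were summarised as the mean log2 CPM of their members in a library. The pallial glutamatergic list was higher in the NAcc than in the CeA in 3 of 47 mice, and the striatal projection neuron list was higher in the CeA in 4 of 47, which made 5 mice in all. In PWK mouse 48 the pallial list stood at 1.97 in the CeA and 5.41 in the NAcc, in AJ mouse 5 at 2.65 and 4.02, and in B6 mouse 33 at 4.05 and 4.31. Ttr, the gene of transthyretin and a hallmark transcript of choroid plexus epithelium, lay over 500 CPM in 12 of 48 CeA libraries and in 0 of 47 NAcc libraries, where it reached 3.13 CPM at most. Those 12 libraries came from 6 strains: 3 from each of NOD and S129, 2 from each of B6 and WSB, and 1 from each of PWK and NZO. A further 4 libraries (the CeA of B6 mouse 1, both regions of PWK mouse 24 and the NAcc of PWK mouse 40) correlated less with the rest of their region, by over 2.5 SD. For some counts below the value without these libraries is also given, and a count given alone may have changed too.

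**Figure D1:**
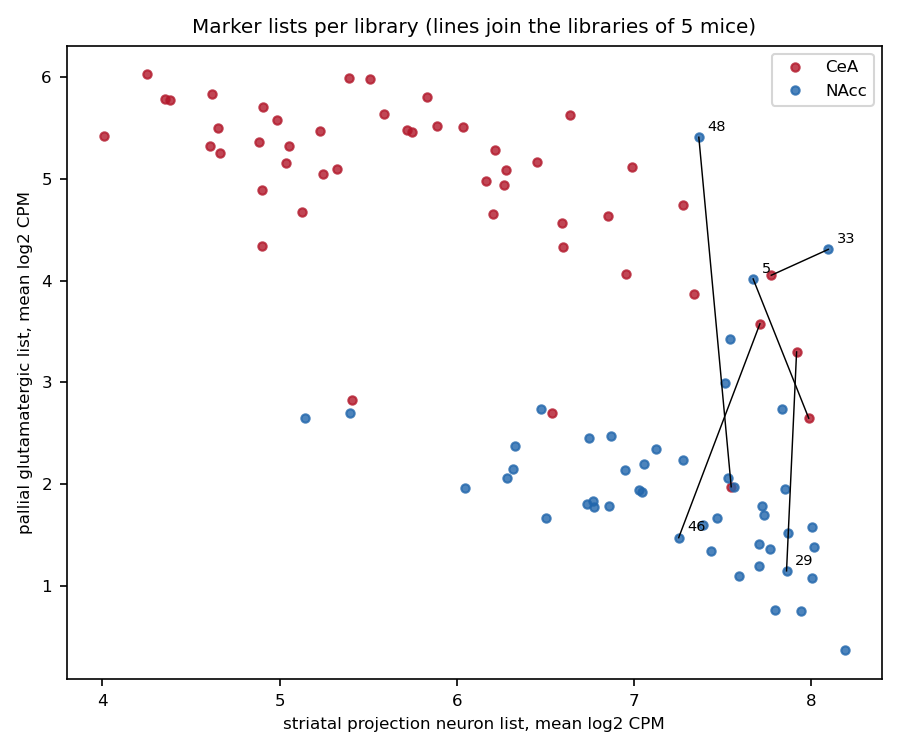
Mean log2 CPM of the striatal projection neuron list (x axis) and of the pallial glutamatergic list (y axis) in each of the 48 CeA (red) and 47 NAcc (blue) libraries; lines join both libraries of the 5 mice in which at least 1 list was higher in the region where it was lower in the other mice, with the mouse number beside the NAcc library. CeA libraries lie at the upper left and NAcc libraries at the lower right, except for these mice and a few libraries between.

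A large share of the genes differed between the regions, mostly by little. Of 14785 genes tested with limma-voom, 9901 passed an adjusted p of 0.05 (67.0%). Of these, 4741 were higher in the CeA (32.1% of genes tested) and 5160 were higher in the NAcc (34.9%). The median absolute difference over all genes was 0.14, and the median SE was 0.042. Tested against a log2 difference of 1, a 2-fold change, 206 genes remained (1.39%), of which 171 were higher in the CeA (1.16%) and 35 in the NAcc (0.237%). Without the 3 mice whose pallial list was higher in the NAcc, 282 remained, 225 higher in the CeA and 57 in the NAcc. Without the 12 CeA libraries with high Ttr, 180 remained, 154 higher in the CeA and 26 in the NAcc. For every gene the values of the CeA and NAcc libraries overlapped, so that 0 genes separated all libraries of the regions.

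**Figure D2:**
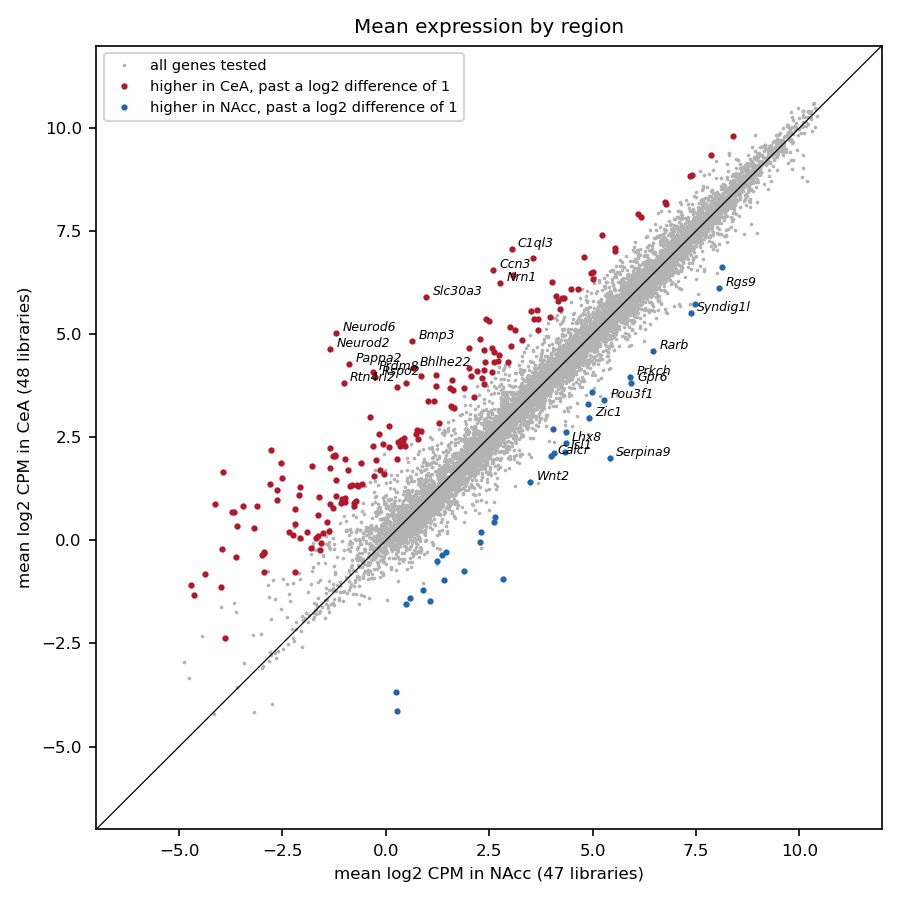
Mean log2 CPM of each gene in the NAcc (x axis, 47 libraries) and in the CeA (y axis, 48 libraries), with genes past a log2 difference of 1 in red (171, higher in CeA) or blue (35, higher in NAcc) and the diagonal of equal expression. Labels mark the 12 genes with the largest difference in each direction. These were ranked among genes with an assigned name and a mean log2 CPM of at least 3 in the higher region.

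Genes were ranked among those with an assigned name and a mean of at least 3 in the higher region. The 12 with the largest differences in favour of the CeA differed by a log2 value of 3.46 to 6.06. Neurod6, a bHLH transcription factor of glutamatergic neurons, had a lowest, median and highest value of -0.79, 5.56 and 6.65 in the CeA and of -5.54, -1.54 and 5.79 in the NAcc. It was 66.7-fold higher in the CeA (log2 difference 6.06, SE 0.68, adjusted p = 8.19e-13), and higher there in 44 of 47 mice. Both the lowest CeA value and the highest NAcc value were those of PWK mouse 48. The next highest NAcc values were 4.63 in B6 mouse 33 and 4.13 in AJ mouse 5. In all of these mice the pallial list was higher in the NAcc, as given above.

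Neurod2, a related bHLH factor, had values of -0.68, 5.20 and 6.24 in the CeA and -5.58, -1.97 and 5.25 in the NAcc, a difference of 5.84 (SE 0.62). Slc30a3, which encodes the transporter that loads zinc into glutamatergic synaptic vesicles, ran from 2.07 to 8.37 in the CeA around a median of 6.20, and from -2.09 to 5.67 in the NAcc around 1.07. Its difference was 4.93 (SE 0.39, adjusted p = 1.71e-19), in the same direction in 46 of 47 mice. Differences of the others of the 12 ran from 3.46 for Nrn1, which encodes the neurite growth factor neuritin, to 5.19 for Pappa2, a secreted protease that cuts insulin-like growth factor binding proteins. Between them lay Rtn4rl2, a receptor of the Nogo family (4.77), Prdm8, a zinc finger regulator of cortical neurons (4.37), the secreted signals Bmp3 (4.27) and Rspo2 (4.16), the matrix protein gene Ccn3 (4.11), the synaptic organizer C1ql3 (4.08) and Bhlhe22, a further bHLH factor (3.66). Each of these 12 genes was higher in the CeA in at least 43 of 47 mice.

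By the same rule, the largest differences in favour of the NAcc were smaller. Serpina9, a serine protease inhibitor gene, had values of -2.11, 1.92 and 5.85 in the CeA and 0.97, 5.48 and 7.05 in the NAcc. It was 8.69-fold higher in the NAcc (log2 difference -3.12, SE 0.30, adjusted p = 1.87e-15), in 46 of 47 mice. Isl1, a LIM homeodomain factor of striatonigral and cholinergic neurons, had values of -3.84, 2.46 and 3.96 in the CeA and 3.60, 4.35 and 5.06 in the NAcc. The NAcc libraries of Isl1 lay within a narrow range, and the lowest of them was below only the highest CeA values. Its difference was -2.004 (SE 0.16, adjusted p = 6.37e-19), and it was higher in the NAcc in all 47 mice.

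The other 10 genes of this group differed by -1.998 to -1.82. They were Wnt2, a secreted signal (-1.998), Gpr6, an orphan receptor of striatal neurons of the indirect pathway (-1.98), Rgs9, the regulator of G protein signalling of striatal neurons (-1.97), Calcr, the calcitonin receptor gene (-1.96), the patterning factor Zic1 (-1.92), the protein kinase C gene Prkch (-1.89), the retinoic acid receptor gene Rarb (-1.86), the POU factor Pou3f1 (-1.86), Syndig1l, which encodes a membrane protein of the striatum (-1.84), and Lhx8, a factor of forebrain cholinergic neurons (-1.82). Lhx8 was higher in the NAcc in 39 of 47 mice, the smallest number of these genes.

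A small number of genes differed in the same direction in every mouse. These were 11 genes higher in the CeA (0.0744% of genes tested) and 13 higher in the NAcc (0.0879%). Cyp26b1, which encodes an enzyme that degrades retinoic acid, had the largest difference of those higher in the CeA, with values of 4.35, 7.07 and 8.09 in the CeA and 0.09, 3.90 and 5.45 in the NAcc, and a difference of 3.20 (SE 0.19, adjusted p = 9.8e-26). Lypd1, a modulator of nicotinic receptors, had a median of 8.93 in the CeA and 7.42 in the NAcc (difference 1.44, SE 0.12). The collagen gene Col23a1 differed by 1.72 (SE 0.09) and Nog, which encodes the BMP antagonist noggin, by 1.05 (SE 0.08). Nsdhl and Mvd, both enzymes of cholesterol synthesis, differed by 0.40 (SE 0.03) and 0.46 (SE 0.04). The others were Chst9, Galnt17, Map3k21, Btbd9 and Gm45441.

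Of the 13 genes higher in the NAcc of every mouse, 4 were transcription factors: Isl1, Rarb, Pou3f4 (-1.56, SE 0.12) and Pou3f2 (-0.94, SE 0.06). Drd3, the gene of the dopamine D3 receptor, which is concentrated in the ventral striatum, had values of -2.46, 0.31 and 1.68 in the CeA and 0.76, 2.44 and 3.71 in the NAcc (difference -2.09, SE 0.15, adjusted p = 7.36e-22). Gfra1, the receptor of glial cell line-derived neurotrophic factor, differed by -0.77 (SE 0.05), and the corepressor gene Tle4 by -0.85 (SE 0.07). Acsm5, an acyl-CoA synthetase gene, had a median of -5.29 in the CeA and 0.26 in the NAcc, and at such a low CeA value its difference depends on the count added before the logarithm. The rest were Sncaip, Shisa9, Ktn1, Prxl2c and Gm44593. These genes were picked for their direction, which is therefore no result of its own.

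**Figure D3:**
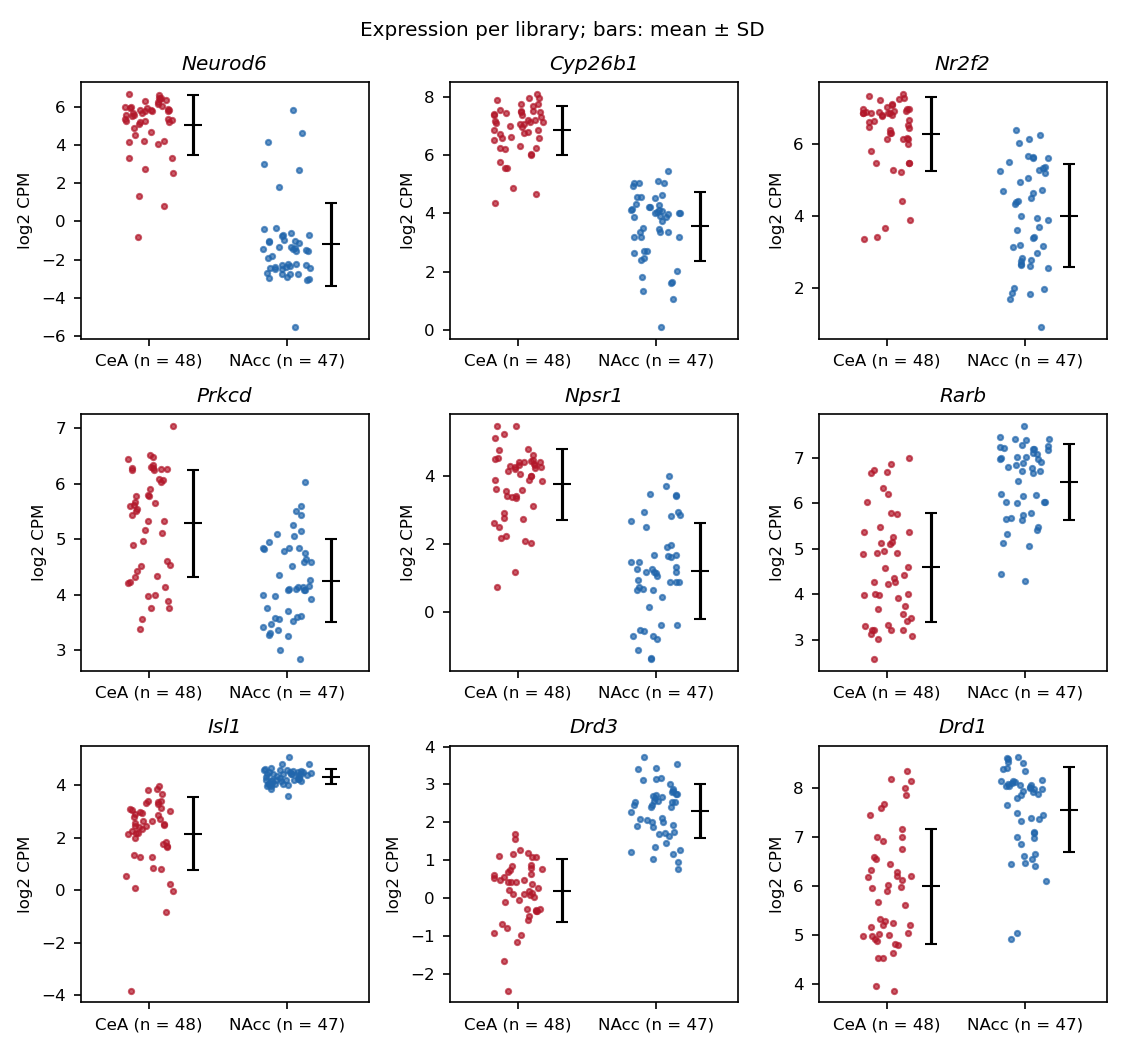
Log2 CPM of 9 genes in each CeA (red, n = 48) and NAcc (blue, n = 47) library, with the mean and SD as bars. Cyp26b1 was higher in the CeA, and Rarb, Isl1 and Drd3 in the NAcc, in all 47 mice, while the groups overlapped for each of the 9 genes.

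Genes of striatal projection neurons were higher in the NAcc nearly throughout. Of 22 measured members, 21 were higher in the NAcc and 0 in the CeA, with a median difference of -1.49, against -0.01 over all genes. The shares over all genes were 34.9% higher in the NAcc and 32.1% in the CeA. Drd1, the dopamine D1 receptor gene, had values of 3.86, 5.96 and 8.33 in the CeA and 4.92, 7.92 and 8.61 in the NAcc, a difference of -1.58 (SE 0.19). Drd2, the D2 receptor gene, had values of 2.71, 5.79 and 8.62 in the CeA and 5.28, 7.53 and 8.52 in the NAcc, a difference of -1.63 (SE 0.22). The highest CeA libraries therefore had as much of either receptor as most NAcc libraries. The member that did not pass was the transcription factor gene Sp9 (-0.06, SE 0.07, adjusted p = 0.506). A further 4 members, among them Ppp1r1b, which encodes the dopamine-regulated phosphoprotein DARPP-32, exceeded the authors' limit on counts. In an unfiltered fit Ppp1r1b differed by -1.52 (SE 0.21) and Scn4b, a sodium channel subunit gene, by -2.46 (SE 0.34).

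The list of dopamine receptors and their signalling partners had 16 of 20 measured members higher in the NAcc and 1 higher in the CeA (median -1.08). The shares over all genes were 34.9% and 32.1%, and the list shares several genes with the striatal list. The member higher in the CeA was Maob, a monoamine oxidase gene (0.16, SE 0.044). In bulk samples, fewer cells of a type and less RNA per cell cannot be told apart.

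Genes of pallial glutamatergic neurons were higher in the CeA. Of 15 measured members, 14 were higher in the CeA and 0 in the NAcc (median 3.11), against 32.1% and 34.9% over all genes. Without the 3 mice named above all 15 were higher in the CeA. Slc17a7, which encodes the vesicular glutamate transporter of cortical neurons and also exceeded the count limit, had a lowest, median and highest value of 9.76, 915 and 1850 CPM in the CeA and of 1.37, 5.14 and 959 CPM in the NAcc. Emx1, the homeobox gene of the cortical primordium, differed by 4.74 (SE 0.51). Slc17a6, the other vesicular glutamate transporter gene, is not on this list and belongs to the diencephalic and hypothalamic list given below. It had medians of 5.41 and 4.56 and differed by 1.14 (SE 0.27, adjusted p = 0.000181). Its median was 42.5 CPM in the CeA, 23.6 CPM in the NAcc and 14.0 CPM in the PrL. Within single strains it passed in 0 of 8.

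The level of the pallial list in the CeA lay between those of the NAcc and the PrL. Its median over libraries was 1.92 in the NAcc, 5.16 in the CeA and 6.35 in the PrL. Of the 171 genes past a log2 difference of 1 in favour of the CeA, 121 were lower in the CeA than in the PrL and 28 were higher (median CeA minus PrL difference -0.97). Both comparisons share the CeA libraries. The part of neighbouring pallial tissue in the CeA punches was not tested.

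Of 15 markers of central amygdala neurons, 6 were higher in the CeA, 5 were higher in the NAcc and 4 did not pass, with a median of 0.02, so that the shares in both directions were near the 32.1% and 34.9% of all genes. Prkcd, which encodes protein kinase C delta and marks a class of lateral CeA neurons, had values of 3.381, 5.53 and 7.04 in the CeA and 2.84, 4.13 and 6.03 in the NAcc. Its difference was 1.01 (SE 0.18, adjusted p = 1.45e-06), in 36 of 47 mice. Nr2f2, an orphan nuclear receptor of caudally derived neurons, had values of 3.36, 6.65 and 7.37 in the CeA and 0.92, 4.01 and 6.39 in the NAcc, a difference of 2.19 (SE 0.23).

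Oxtr, the oxytocin receptor gene, differed by 1.17 (SE 0.10) and Calcrl, which encodes a subunit of the receptor for calcitonin gene-related peptide, by 0.72 (SE 0.06). Sst, the somatostatin gene, was abundant in both regions, with medians of 8.30 and 7.64, and differed by 0.62 (SE 0.056). The members higher in the NAcc were Dlk1 (-1.73, SE 0.12), a non-canonical Notch ligand, Cartpt (-1.30, SE 0.15), the CART peptide gene that projection neurons of the accumbens also express, Avpr1a, the vasopressin V1a receptor gene (-0.99, SE 0.27), Crh, the corticotropin-releasing hormone gene (-0.56, SE 0.17), and Wfs1, an endoplasmic reticulum protein gene (-0.29, SE 0.09). Nts, the neurotensin gene, had medians of 4.66 and 4.50, and its difference of 0.02 (SE 0.13) did not pass.

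Against the PrL, where its mean was -1.72, Nts was higher in the CeA by 6.18 (SE 0.37), and Prkcd was higher by 2.46 (SE 0.19).

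Over all genes, 1028 were higher in the CeA than in either other region (6.95%) and 2627 lay above the NAcc and below the PrL (17.8%). Among the 171, 28 were higher than in both. Cyp26b1 was higher than in the PrL by 4.18 (SE 0.21). Lhx9, a LIM homeodomain gene, had medians of 1.04 in the CeA and -1.90 in the NAcc (difference 2.44, SE 0.42) and was higher than in the PrL by 3.98 (SE 0.47). Npsr1, the neuropeptide S receptor gene, had values of 0.75, 4.01 and 5.46 in the CeA and -1.36, 1.18 and 3.99 in the NAcc (difference 2.36, SE 0.25), and exceeded the PrL by 1.79 (SE 0.24). Scn10a, a sodium channel gene best known from sensory neurons, had medians of 1.47 and -0.93 and exceeded the PrL by 4.64 (SE 0.31). The patterning factor Pax6 (1.35, SE 0.10) and the orphan nuclear receptor gene Nr4a2 (2.71, SE 0.29) were further members. Other than Cyp26b1, Nr2f2 and Pappa2, these genes were named after their values were seen.

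Retinoic acid is made by retinaldehyde dehydrogenases, acts on nuclear receptors of the RAR and RXR families that sit on DNA, and is removed by the CYP26 enzymes. Of 16 measured members of the pathway, 4 were higher in the CeA and 8 in the NAcc, against 32.1% and 34.9% over all genes (median -0.24). Cyp26b1 was higher in the CeA and Rarb in the NAcc in all 47 mice, as given above. Rarb had values of 2.58, 4.40 and 6.99 in the CeA and 4.30, 6.77 and 7.70 in the NAcc, which was 3.64-fold higher. The paralogous receptor genes differed by less: Rara was higher in the CeA (0.51, SE 0.053) and Rarg in the NAcc (-0.31, SE 0.05). Of the synthesis enzymes, Aldh1a2 (0.92, SE 0.15) and Aldh1a1 (0.42, SE 0.15) were higher in the CeA, and Aldh1a3 (0.23, SE 0.31) did not pass.

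The 250 bases before the start of both genes are shown because these genes lay at the ends of the list. They are the RefSeq reference sequence of build GRCm38.p6, which is older than the build on which reads were counted, and are written 5′ to 3′ on the strand of the gene, the minus strand in both cases. Capitals mark a match to the DR5 retinoic acid response element, a pair of half-sites with 5 bases between them, on either strand.
Rarb, chr14:16575477-16575726: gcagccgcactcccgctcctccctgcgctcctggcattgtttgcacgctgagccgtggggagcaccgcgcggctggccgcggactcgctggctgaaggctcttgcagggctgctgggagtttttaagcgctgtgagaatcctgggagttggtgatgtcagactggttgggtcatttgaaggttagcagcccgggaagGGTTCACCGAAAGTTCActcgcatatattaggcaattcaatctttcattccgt
Cyp26b1, chr6:84593811-84594060: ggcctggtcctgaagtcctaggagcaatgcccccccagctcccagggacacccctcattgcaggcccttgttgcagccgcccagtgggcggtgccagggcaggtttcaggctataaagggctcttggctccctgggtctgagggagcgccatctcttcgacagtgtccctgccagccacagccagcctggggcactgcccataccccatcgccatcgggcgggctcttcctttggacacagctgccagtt
The window of Rarb held 1 match, from base -53 to base -37, and that of Cyp26b1 held none. Over all 32851 windows, 29 held a match (0.0883%). A match is a description of letters and was not measured as a binding site.

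Of 50 measured patterning transcription factors, 23 were higher in the CeA and 22 in the NAcc, against 32.1% and 34.9% over all genes, with a median of -0.00, and their differences ran from -2.004 (Isl1) to 6.06 (Neurod6). Those higher in the CeA included the pallial factors above, and those higher in the NAcc included Zic1, Lhx8 and Isl1. Zic1 had values of 0.88, 2.90 and 4.85 in the CeA and 3.69, 4.79 and 7.42 in the NAcc.

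All 10 genes of the cholinergic list were higher in the NAcc (median -1.65), against 34.9% over all genes. A strain by region interaction was found for 9 of 10, against 11.6% over all genes. That count was not redone without the 12 CeA libraries with high Ttr, where 243 genes had an interaction in place of 1712. The mean of the list was 3.56 in the CeA (n = 6) and 3.53 in the NAcc (n = 5) of B6, but 0.73 and 4.09 in NOD and 0.88 and 4.14 in WSB (n = 6 each). Chat, which encodes the enzyme that makes acetylcholine, had values of -5.31, 2.99 and 5.84 in the CeA and 4.09, 4.80 and 6.03 in the NAcc. Its difference was -1.62 (SE 0.26, adjusted p = 1.24e-07), and it was higher in the CeA in 11 of 47 mice. Slc5a7, the choline transporter gene, differed by -1.68 (SE 0.22), and Ache, the acetylcholinesterase gene, by -0.33 (SE 0.08). NAcc libraries varied little in Chat, while CeA libraries ranged from near 0 counts to above the NAcc median.

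Genes of GABA synthesis and transport were abundant in both regions and somewhat higher in the NAcc. Gad2 had medians of 9.28 and 9.92 (difference -0.64, SE 0.066), Gad1 9.43 and 9.74 (-0.34, SE 0.052), and Slc32a1, the vesicular GABA transporter gene, 7.81 and 8.44 (-0.61, SE 0.074). Of the 16 members of the list, 6 were higher in the CeA and 8 in the NAcc, against 32.1% and 34.9% over all genes. The largest differences were those of Vip (3.44, SE 0.29) and Cck (3.41, SE 0.25), peptides of cortical interneurons, of which Cck is also made by pallial excitatory neurons. Vip had medians of 4.01 in the CeA and 0.27 in the NAcc, and its mean in the PrL was 5.86. Nkx2-1, a factor of ventral forebrain interneurons, was higher in the NAcc (-1.23, SE 0.13).

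**Figure D4:**
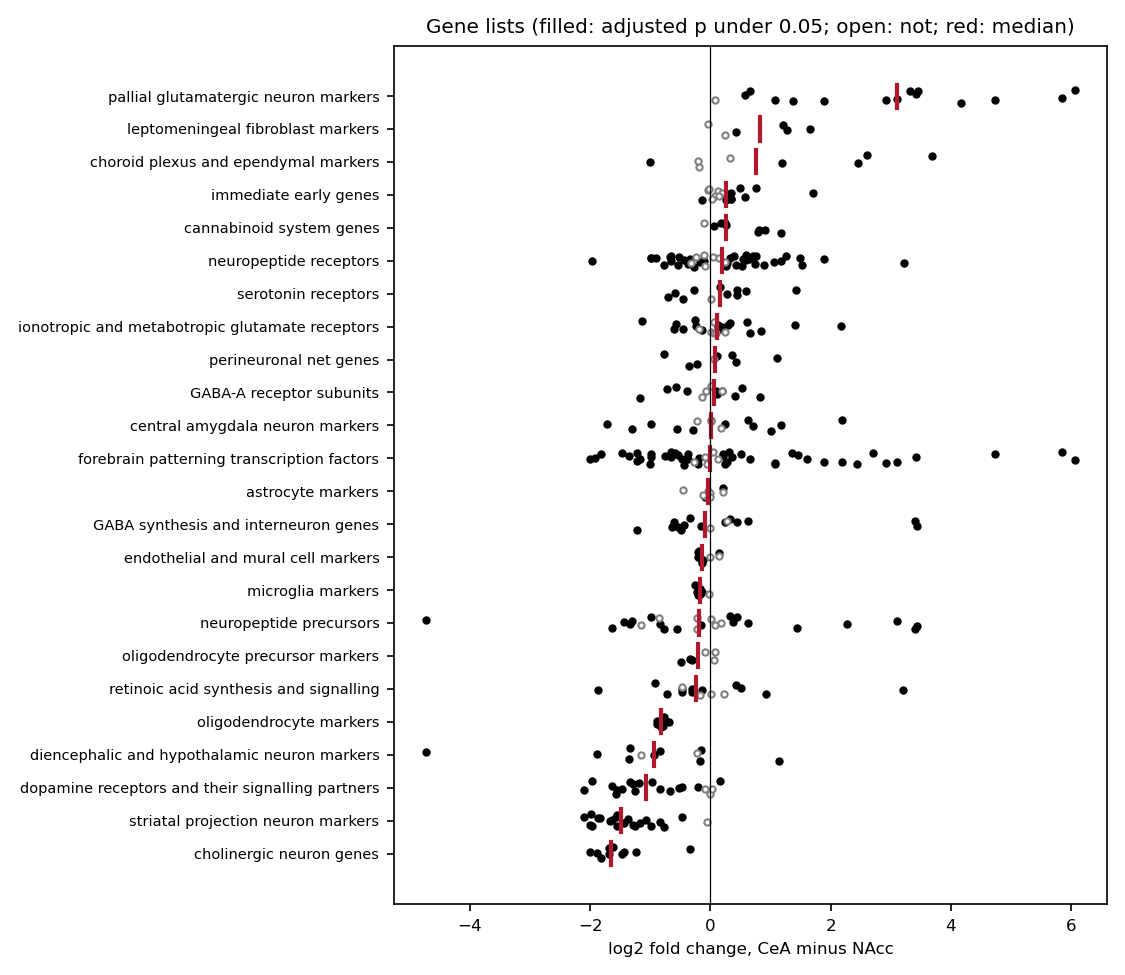
Log2 difference (CeA minus NAcc, x axis) of each measured member of 24 gene lists, filled where the adjusted p was under 0.05 and open where it was not, with the list's median in red. The pallial list has the highest median (3.11) and the cholinergic list the lowest (-1.65), whereas the neuropeptide and receptor lists spread to both sides of 0.

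Of 26 measured neuropeptide precursor genes, 9 were higher in the CeA and 10 in the NAcc (median -0.19), shares near the 32.1% and 34.9% of all genes. Besides Vip and Cck, Grp, the gastrin-releasing peptide gene, was higher in the CeA by 3.11 (SE 0.46), in 46 of 47 mice, and Adcyap1, the PACAP gene, by 2.28 (SE 0.30). The striatal precursors Tac1 (-1.43, SE 0.17), Pdyn (-0.98, SE 0.18) and Penk (-0.77, SE 0.15), which encode substance P, dynorphin and enkephalin, were higher in the NAcc. Penk was among the most abundant of these in both regions, with medians of 9.22 and 10.15.

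Peptides of the hypothalamus were uneven between libraries. Oxt, the oxytocin gene, had values of -5.75, -3.88 and 3.37 in the CeA and -5.61, 1.12 and 7.25 in the NAcc. Its difference of -4.72 (SE 0.80) was not seen in every mouse, as 12 of 47 had more in the CeA, and at these low values it depends on the count added before the logarithm. The list of diencephalic and hypothalamic genes, to which it belongs, had 8 of 11 measured members higher in the NAcc (median -0.94). The 1 member higher in the CeA was Slc17a6, given above. The shares over all genes were 34.9% higher in the NAcc and 32.1% in the CeA. In a library the mean of this list ran from -1.15 to 2.71 in the CeA and from -1.56 to 4.42 in the NAcc. The highest mean over NAcc libraries was in WSB (2.49). Its part in other differences was not tested.

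Of 46 neuropeptide receptor genes, 22 were higher in the CeA and 17 in the NAcc (median 0.19), against 32.1% and 34.9% over all genes. Rxfp1, a relaxin receptor gene, had medians of 3.16 in the CeA and -0.17 in the NAcc (difference 3.23, SE 0.29), and Sstr3, a somatostatin receptor gene, 4.50 and 2.60 (1.90, SE 0.16). Calcr was 3.90-fold higher in the NAcc. Oxtr and Avpr1a, receptor genes of the related peptides oxytocin and vasopressin, differed in opposite directions, by 1.17 and -0.99. Within single strains Oxtr passed in 8 of 8 and Avpr1a in 0 of 8, with a difference in favour of the CeA in 2. Avpr1a had low medians of 0.73 CPM in the CeA and 1.92 CPM in the NAcc.

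Of 24 glutamate receptor genes, 11 were higher in the CeA and 7 in the NAcc (median 0.11), against 32.1% and 34.9% over all genes. Grm2, a presynaptic metabotropic receptor gene, differed by 2.17 (SE 0.18) and Grm4, of the same family, by -1.13 (SE 0.11). Of 14 GABA-A subunit genes, 6 were higher in the CeA and 4 in the NAcc (median 0.06), against 32.1% and 34.9% over all genes. Gabra3 (0.82, SE 0.09), Gabra5 (0.53, SE 0.057) and Gabra2 (0.40, SE 0.056) were higher in the CeA, whereas Gabrd, the subunit of extrasynaptic receptors, was higher in the NAcc (-1.17, SE 0.18).

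Of 11 serotonin receptor genes, 6 were higher in the CeA and 4 in the NAcc, against 32.1% and 34.9% over all genes. The numbers were 5 and 3 without the 12 CeA libraries with high Ttr. They were 5 and 4 without the 3 mice whose pallial list was higher in the NAcc. Htr3a, the ion channel subunit gene, differed by 1.43 (SE 0.17) and Htr1b by -0.71 (SE 0.10). The cannabinoid genes were higher in the CeA in 8 of 9 cases and in the NAcc in 0 (median 0.25), against 32.1% and 34.9% over all genes. Faah, the enzyme that degrades anandamide, had medians of 6.40 and 5.20 (1.18, SE 0.08), and Cnr1, the CB1 receptor gene, 8.04 and 6.98 (0.91, SE 0.11). Of 8 perineuronal net genes, 4 were higher in the CeA and 3 in the NAcc, against 32.1% and 34.9% over all genes. Hapln4 differed by 1.12 (SE 0.15).

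Immediate early genes, whose transcripts rise within minutes of neuronal activity, were higher in the CeA in 11 of 19 cases and in the NAcc in 1 (median 0.26). Without the 12 CeA libraries with high Ttr the numbers were 8 and 1. Over all genes, 32.1% were higher in the CeA and 34.9% in the NAcc. Nr4a3 had medians of 5.64 and 3.62 (1.71, SE 0.16), and Jun 5.64 and 4.82 (0.76, SE 0.08). Fos had medians of 2.95 and 2.501 and differed by 0.34 (SE 0.12, adjusted p = 0.0093), while Egr1 (0.12, SE 0.10) did not pass. Klf4, the member higher in the NAcc (-0.13, SE 0.061), had an adjusted p of 0.0471, and it did not pass under 10 of the other settings.

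Glial genes were mostly higher in the NAcc or differed little. All 9 measured oligodendrocyte genes were higher in the NAcc, by -0.89 to -0.69, against 34.9% over all genes. A strain by region interaction was found for 9 of 9, against 11.6% over all genes. That count was not redone without the 12 CeA libraries with high Ttr, where 243 genes had an interaction in place of 1712. The mean of the list was 7.18 in the CeA (n = 6) and 7.04 in the NAcc (n = 5) of B6, but 5.63 and 7.31 in NOD (n = 6 each). Mag, a myelin glycoprotein gene, had medians of 6.74 and 7.87 (-0.89, SE 0.15). Of 11 microglia genes, 10 were higher in the NAcc, against 34.9% over all genes, with a small median of -0.17. Without the 12 CeA libraries with high Ttr, 8 of the 11 were higher in the NAcc. Of 9 measured astrocyte genes, 1 was higher in each region and 7 did not pass. Slc1a2, an astrocyte gene that exceeded the count limit, was higher in the CeA by 0.23 (SE 0.043) in an unfiltered fit. Of 6 oligodendrocyte precursor genes, 3 were higher in the NAcc and 3 did not pass. Of 9 endothelial and mural genes, 6 were higher in the NAcc and 1 in the CeA (median -0.15). The shares over all genes were 34.9% higher in the NAcc and 32.1% in the CeA.

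Of 8 choroid plexus and ependymal genes, 4 were higher in the CeA and 1 in the NAcc, against 32.1% and 34.9% over all genes. Without the 12 CeA libraries with high Ttr the numbers were 2 and 3. Kcnj13, a potassium channel gene of the choroid plexus, had values of -5.88, -2.54 and 6.62 in the CeA and at most -2.64 in the NAcc. Folr1, the folate receptor gene, had a highest value of 6.14 in the CeA, and its difference of 2.61 (SE 0.75) was 0.45 and did not pass without those libraries. The leptomeningeal list was higher in the CeA in 4 of 6 genes and in the NAcc in 0, against 32.1% and 34.9% over all genes. Among the 4 was Dcn, the decorin gene (1.66, SE 0.24). Without the 12 libraries the count was again 4 and 0, and the median of the list fell from 0.82 to 0.30.

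Whether the regional difference varied with strain was tested by the interaction of strain and region. It passed for 1712 of 14785 genes (11.6%), of which 1386 also differed between regions (9.37% of genes tested). Without the 12 CeA libraries with high Ttr, which were spread unevenly over the strains, 243 genes passed, and with the NAcc library that the authors left out added, 942 passed. Within single strains, the number of genes that differed between regions ran from 1282 in PWK (8.67%) to 5405 in NOD (36.6%), and was 3237 in B6 (21.9%), 2987 in AJ (20.2%), 4245 in S129 (28.7%), 4024 in NZO (27.2%), 4966 in WSB (33.6%) and 3114 in CAST (21.1%). Without the 3 mice whose pallial list was higher in the NAcc, PWK, the strain of mouse 48, had 2427, and without the 12 libraries with high Ttr, B6 had 1520 and S129 had 2343. Without both libraries of B6 mouse 9, B6 had 1615. A total of 149 genes were higher in the CeA in each of the 8 strains (1.01%) and 59 were higher in the NAcc (0.399%), while 205 were higher in the CeA in some strains and in the NAcc in others (1.39%).

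Interactions were ranked among genes with an assigned name and a mean of at least 3 in either region. Th, which encodes the rate-limiting enzyme of dopamine synthesis, had the smallest interaction p of these (adjusted p = 1.56e-05, limma F test). In the NAcc its mean was similar among strains, from 3.67 ± 0.26 in AJ to 4.42 ± 0.71 in PWK (SD, n = 6). In the CeA it ran from 0.72 ± 1.24 in WSB to 4.70 ± 0.79 in PWK (SD, n = 6). The difference was therefore -3.23 (SE 0.54) in WSB, -2.82 (SE 0.43) in NOD and -2.64 (SE 0.46) in S129, but 0.28 (SE 0.26) in PWK and -0.61 (SE 0.34) in CAST, where it did not pass. The spread among strains was thus wider in the CeA than in the NAcc.

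Rasgef1c, which encodes a guanine nucleotide exchange factor, changed direction with strain. It was lower in the CeA in B6 (-1.35, SE 0.29, adjusted p = 0.000374) and higher in WSB (0.96, SE 0.28), NOD (0.82, SE 0.26) and NZO (0.75, SE 0.28), and over all strains its difference of 0.11 (SE 0.12) did not pass. The interactions of Slc18b1, a vesicular polyamine transporter gene, Otub2, a deubiquitinase gene, Mtarc2, Abhd14a, Gstm7, a glutathione transferase gene, and Fmnl1, a formin gene, also passed. All 8 passed under each of the 10 other settings in which they were tested, those without the doubted libraries included. Gstm7 belongs to a family of near-identical copies, so that reads may have been split between them.

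**Figure D5:**
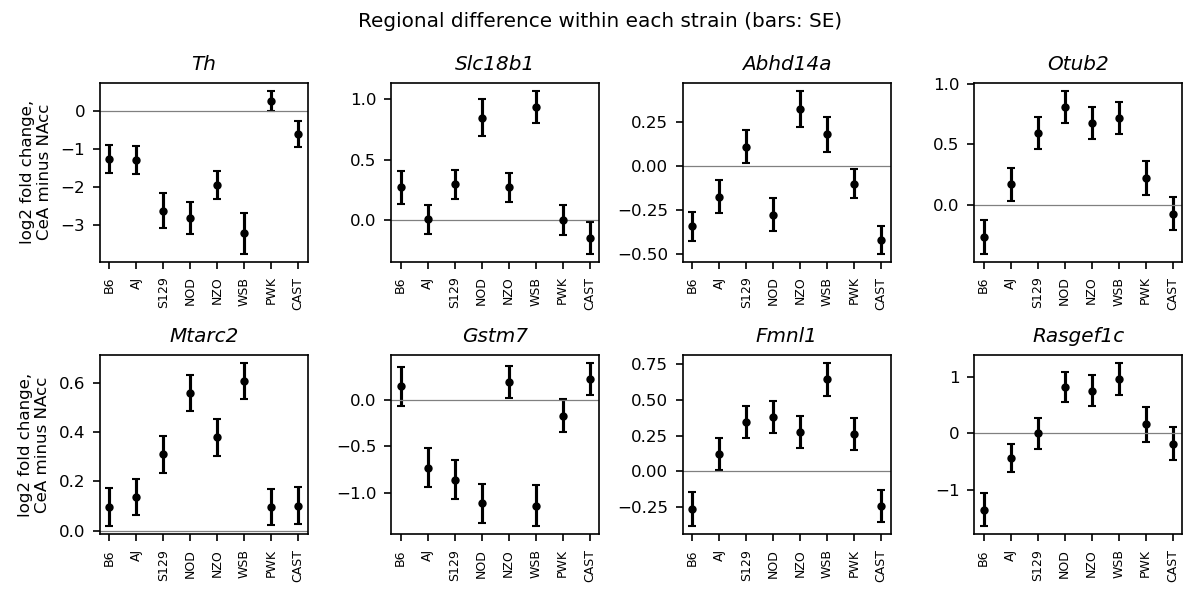
Log2 difference (CeA minus NAcc, y axis) with its SE within each of the 8 strains (x axis) for the 8 genes with the smallest interaction p. These were ranked among genes with an assigned name and a mean of at least 3 in either region. Th lies below 0 in 7 strains and at 0.28 in PWK, and Rasgef1c runs from -1.35 in B6 to 0.96 in WSB.

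The regional difference was not found to vary with sex. The interaction of sex and region passed for 0 genes by limma-voom and by limma-trend, and 363 genes had an unadjusted p under 0.05 (2.46%). Among genes with an assigned name and a mean of at least 3 in either region, the smallest unadjusted p values were those of Trp53rka, Abhd16a and Rab24.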

How the data were processed

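RNA was extracted from punches of the CeA, NAcc and prelimbic cortex (PrL), and poly(A)-selected stranded libraries were sequenced on an Illumina NovaSeq. The authors trimmed reads with Trimmomatic, aligned them with STAR 2.7.3a and deposited raw read counts per gene. The deposited log2 CPM table was made by the authors with edgeR 3.38.1 from those counts, after genes with a mean under 1 CPM or any count above 50000 had been left out. The annotation was Ensembl 105 on GRCm39 per the processing notes, while the methods also name an older build. The log2 table held 1 sequencing run per library: tray 1, run 1 of tray 2 and run 2 of tray 3.

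Counts of the same libraries and genes were normalised by TMM and fitted with limma-voom (limma 3.58.1, edgeR 4.0.16, R 4.3.3), the tools the study used for its comparisons of strains within a region, here with region, strain and tray as terms and mouse as a random block. A prior count of 0.5 was used. P values were adjusted by Benjamini-Hochberg over 14785 genes with a threshold of 0.05, and differences beyond a log2 value of 1 were tested with limma's treat. Interactions were tested with limma F tests, and the contrasts within strains were adjusted together over the 8 strains. Library totals over all genes ran from 18240695 to 33951616 counts. Levels per gene were not divided by length, so they compare regions and not genes.

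Both regions came from the same animals by the labels. The median correlation of residuals between both libraries of a mouse was -0.039, from -0.28 to 0.30, and that between different mice was -0.0085. The consensus correlation of the block was 0.0165. Replicates were separate mice.

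Genes were named by rule: the 12 largest differences in each direction with a mean log2 CPM of at least 3 in the higher region, up to 3 called members of each list in each direction, and the 8 smallest interaction p values with strain and the 3 with sex. The interaction rankings were limited to genes with a mean of at least 3 in either region. Gene models without an assigned name were left out of the rankings by difference and by interaction. Other genes named, members of lists included, were chosen after their values were seen. The members and lists were chosen with earlier results of these data known. Alternatives included DESeq2 1.42.0, edgeR's quasi-likelihood test, limma-trend, other filters, normalisations and runs, and the leaving out of libraries. Promoter windows came from RefSeq on GRCm38.p6.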

Additional observations from a re-analysis of the deposited data

Results flagged for a closer look

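The difference between the regions varied with strain, by the test of the interaction itself, for 1712 genes. The 8 named genes had F values of 10.4 (Th), 8.8 (Slc18b1), 8.8 (Abhd14a), 8.5 (Otub2), 8.2 (Mtarc2), 8.0 (Gstm7), 7.4 (Fmnl1) and 7.4 (Rasgef1c), each over 7 terms.

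Single libraries stood apart from the others of their strain and region in 7 of 128 groups of these genes, where chance gives about 1 in 20. In log2 CPM these were Otub2 at 4.58 in the NAcc of NOD mouse 47 and at 4.3 in the CeA of WSB mouse 27, and Gstm7 at 4.33 in the NAcc of NOD mouse 47. Fmnl1 stood at 5.51 in the NAcc of S129 mouse 14 and at 6.56 in the CeA of PWK mouse 40, and Rasgef1c at 4.14 in the NAcc of AJ mouse 21 and at 5.03 in the NAcc of PWK mouse 48.

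Ttr, which is outside the deposited log2 table, lay over 500 CPM in 12 CeA libraries and in no NAcc library.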

How the results depend on the processing

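The 9901 genes that differed between regions became 6100, 6469 and 5321 within trays 1, 2 and 3, which hold fewer libraries and no pair from the same mouse. Of these, 3061 in tray 1 and 2821 in tray 3 were higher in the CeA, and 3039, 3167 and 2500 in trays 1, 2 and 3 were higher in the NAcc. The genes past a log2 difference of 1 numbered 116 (96 CeA, 20 NAcc) at a mean CPM of at least 5, where fewer genes were tested, and 350 (275 CeA, 75 NAcc) with no filter. Those higher in the NAcc numbered 60 with sample quality weights and 57 without the 3 mice. The strain by region count was 942 with the excluded library added, 6405 with quality weights and 243 without the Ttr-high CeA libraries, and the cause was not tested. Without both libraries of 1 mouse at a time, among its mice with both regions, B6 had 1615 to 3427 genes. It had 1520 without the Ttr-high libraries. PWK had 2427 without the 3 mice, and S129 had 2343 without the Ttr-high libraries. Without the replicate block 9861 genes differed and 1359 had an interaction. The pairing by mouse as a fixed replicate block gave 10043, and moved no other total by over 1.5 times. Otx2, a choroid plexus gene whose difference was negative, reversed to 0.28 with DESeq2 and no replicate block, to 0.43 with mouse as a fixed replicate block and to 0.13 within tray 2. Otp, a hypothalamic gene, no longer passed with mouse as a fixed replicate block, and Klf4 and Gabrq were lost under some settings and Folr1 and Igf2 without the Ttr-high libraries. Of 152 gene differences followed over the settings, 22, 14 and 26 no longer passed within trays 1, 2 and 3. Avpr1a, Maob, Gabrd, Htr1b, Lhx9, Slc17a6 and Mag were also among the genes that failed to pass under some settings. Upper quartile normalisation gave 4410 genes higher in the CeA and 5519 in the NAcc. The library sets left out for their Ttr, pallial list or correlation were chosen after seeing the data. Values under 0 log2 CPM rest on few counts, and differences of such genes depend on the prior count.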

Other observations

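Ptprc, the gene of the leukocyte antigen CD45, was higher in the CeA, whereas 10 of 11 microglia genes were higher in the NAcc. It had values of 1.68, 3.93 and 5.23 in the CeA and 0.91, 1.93 and 2.48 in the NAcc, a difference of 1.86 (SE 0.20), in 42 of 47 mice. This gene was chosen after its values were seen.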
